A study of Silurus lanzhouensis with 6 samples.

Results

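The 100 transcripts described here were the steadiest at 100 to under 1000 FPKM in back muscle of 6 fish of the catfish Silurus lanzhouensis. They were chosen from 479 clusters (the deposited table gives 1 row of values per cluster) whose mean over the 6 fish was at least 100 and under 1000 FPKM. FPKM is a fragment count divided by the length of the transcript and by the size of the library. For each cluster the standard deviation (SD) of log2(FPKM + 1) over the 6 fish was computed, and the 100 clusters with the smallest SD were taken. They are 100 of 89579 clusters in the table. All 100 had a mean far above the limit of 1 FPKM used for the test across the table, so none was lost to that filter. Since the values of all 6 fish chose them, their small spread and their small differences between groups are descriptions and carry no test.

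The fish came from selected females crossed with wild males and were reared together for 16 weeks in 1 tank of flowing pond water at about 24 °C. RNA from the back muscle of the 3 heaviest and the 3 lightest fish of that tank was sequenced, 1 library per fish. No treatment other than the shared rearing is given in the labels. Body weight is thus the only stated difference between the groups, and sex and age at sampling are not given. The groups are the 2 ends of the weight range of 1 tank, and both were defined by the outcome of growth.

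Skeletal muscle is an unusually uneven tissue in its RNA. A small number of transcripts for contractile proteins, calcium handling and energy supply make up much of the message, and below them lies a layer of abundant transcripts for general cell work such as protein synthesis and mitochondrial respiration. Transcripts whose level hardly moves between animals are used as references when other genes are compared between samples. The value of a reference depends on how the libraries were scaled, because FPKM is a relative measure. The deposited files pair no cluster with a gene name or a sequence, so the roles of the 100 transcripts are not known here, the muscle label was not checked against marker genes, and no pathway is described. A few clusters are given by ID, and the others by their rank in SD.

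Total FPKM was 1024978, 995333 and 959547 in heaviest fish 1, 2 and 3 and 947297, 930285 and 950215 in lightest fish 1, 2 and 3. Every heaviest fish was thus above every lightest fish. Scaling every fish to the same total therefore lowers the heaviest fish relative to the lightest in each cluster. FPKM sums do not show sequencing depth, so depth is unknown. Heaviest fish 1 stood apart from the others over the 28592 clusters that averaged 1 FPKM or more. Its mean correlation with the other 5 fish was 0.751, against 0.805 to 0.818 for each of the others. Without heaviest fish 1, 77 of the 100 clusters were chosen again by the same rule. Leaving out any other single fish returned 78 to 90 of them.

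The steadiest cluster held its level within a narrow band in all 6 fish. Cluster-6468.31783 measured 877.8, 923.1 and 915.9 FPKM in fish 1, 2 and 3 of the heaviest. In lightest fish 1, 2 and 3 it was at 846.8, 895.6 and 854.3 FPKM. The highest fish was 1.09-fold above the lowest, and the groups overlapped, since lightest fish 2 was above heaviest fish 1. The SD of its log2 level over the 6 fish was 0.0514. It lay between the 134th and 156th most abundant cluster in every fish.

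The second steadiest was much less abundant. Cluster-6468.26463 measured 143.5, 144.8 and 131.0 FPKM in fish 1, 2 and 3 of the heaviest, and at 137.2, 140.3 and 142.6 FPKM in fish 1, 2 and 3 of the lightest. Its lowest fish, heaviest fish 3, was apart from the other 5, which lay between 137.2 and 144.8 FPKM. The SD of its log2 level was 0.0530, and its highest fish was 1.105-fold above its lowest.

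Steadiness was found at every level within the range. The third steadiest cluster was at 841.9, 907.6 and 876.6 FPKM among the heaviest fish and 828.3, 853.9 and 816.6 FPKM among the lightest fish. The fourth was close to the lower end of the range, at 109.5, 114.9 and 109.5 FPKM among the heaviest and 106.8, 120.9 and 112.8 FPKM among the lightest fish. The fifth was at 307.4, 304.1 and 285.6 FPKM among the heaviest and 302.3, 324.1 and 318.7 FPKM among the lightest fish. In these 3 clusters the groups overlapped. The highest fish was heaviest fish 2 for the third cluster and lightest fish 2 for the fourth and the fifth. Among the 10 steadiest clusters, the highest fish was 1.09-fold to 1.16-fold above the lowest. The coefficient of variation of FPKM in those 10, the SD as a percentage of the mean, ran from 3.56% to 5.07%.

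Across all 100 clusters the coefficient of variation ran from 3.56% to 12.7%, with a median of 9.16%. The ratio of the highest to the lowest fish had a median of 1.28-fold and reached 1.44-fold. It was under 1.2-fold in 19 clusters, under 1.3-fold in 59 and under 1.4-fold in 96. The widest ratio belonged to the cluster ranked 95, at 134.8, 172.8 and 120.1 FPKM among the heaviest fish and 142.4, 135.4 and 148.3 FPKM among the lightest fish. In that cluster heaviest fish 2 was the highest and heaviest fish 3 the lowest, with the 3 lightest fish between them. In the other 379 clusters of the same range of level the median ratio was 1.87-fold.

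The boundary of the set was not a gap. The last 5 clusters inside had SDs of log2 level from 0.175 to 0.180, and the first 5 outside had SDs from 0.180 to 0.185. The median SD was 0.132 in the 100 clusters, 0.334 in the other 379 and 0.424 over all 28592 clusters tested. One of the 479 clusters was listed at 0 in at least 1 fish, and it was not among the 100.

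**Figure D1:**
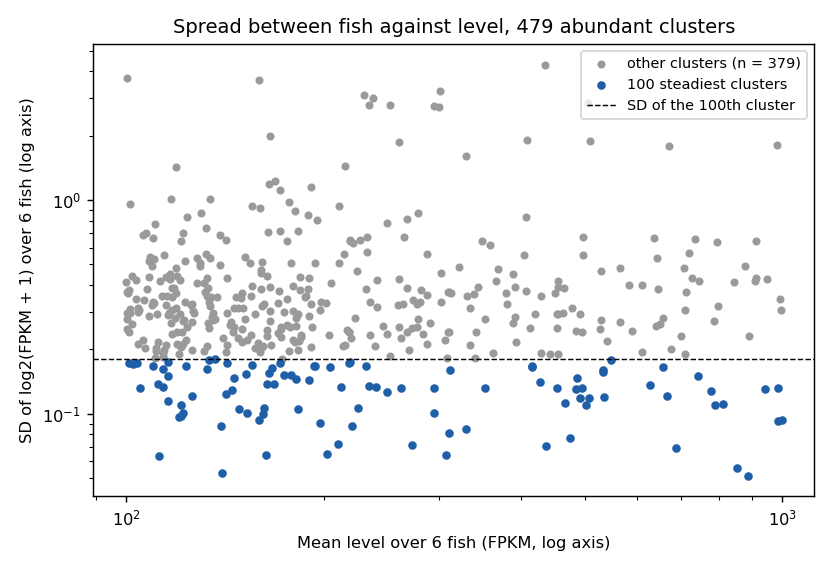
Each point is 1 of 479 clusters, with its mean level over 6 fish in FPKM on the horizontal log axis and the SD of log2(FPKM + 1) over the 6 fish on the vertical log axis. The 100 steadiest clusters (blue) lie at or below the dashed line at 0.180 and run without a gap into the 379 others (grey), which reach an SD of 4.31.

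The steady clusters were more frequent among the more abundant ones. They made up 48 of 267 clusters (18.0%) with a mean of 100 to under 200 FPKM, 32 of 150 (21.3%) from 200 to under 500 FPKM and 20 of 62 (32.3%) from 500 to under 1000 FPKM. The median level was 207 FPKM in the 100 clusters and 178 FPKM in the other 379. Outside the range of the rule the same order continued. Of the clusters at 1000 FPKM and over, 81 of 133 (60.9%) had an SD no larger than that of the 100th cluster. Between 10 and 100 FPKM this held for 505 of 4370 (11.6%), and between 1 and 10 FPKM for 1346 of 23610 (5.70%). These shares describe the table, and levels near 1 FPKM are compressed by the added 1.

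The abundance ranks of the steady clusters also moved little. The ranks come from the same values on which the rule chose small spreads, so they are a description and no separate sign of steadiness. For each cluster the rank among all 89579 clusters was taken in every fish, and the difference between its best and worst rank was computed. That difference had a median of 63.5 places in the 100 clusters, with a range of 13 to 184, and a median of 186 places in the other 379. The cluster with the lowest mean, ranked 93 in SD, was at 90.0, 114.6 and 86.1 FPKM among the heaviest and 101.0, 99.6 and 115.8 FPKM among the lightest fish, between the 551st and 730th place. The cluster with the highest mean, ranked 19 in SD, was at 989.5, 1115.8 and 915.0 FPKM among the heaviest and 969.1, 991.7 and 1004.4 FPKM among the lightest fish, between the 131st and 144th place. In both clusters the heaviest fish ranged more widely than the lightest fish.

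The summed level of the 100 clusters varied little between fish. The rule chose small spreads on these same values, so this and the contrast with the other 379 clusters are descriptions. The 100 clusters summed to 31203.3, 33289.2 and 32085.4 FPKM in fish 1, 2 and 3 of the heaviest. In lightest fish 1, 2 and 3 the sum was 30776.4, 32211.5 and 31973.7 FPKM. Heaviest fish 2 was the highest and lightest fish 1 the lowest, 1.08-fold apart, and the groups overlapped. The other 379 clusters differed by 1.32-fold between their highest and lowest fish. As a share of all FPKM in a fish, the 100 clusters held 3.04% in heaviest fish 1 and 3.25% to 3.46% in the other 5. The highest share was 1.14-fold above the lowest, against 1.24-fold for the share of the other 379 clusters, so the contrast was smaller for shares than for sums. Group means of the sum were 32193 ± 1047 FPKM for the heaviest and 31654 ± 769 FPKM for the lightest fish (SD over 3 fish in each group). The difference of 538.8 FPKM was smaller than the spread between fish. It became -1108.2 FPKM when every fish was scaled to the same total and 2291.2 FPKM after median-ratio scaling, in which the median ratio to the mean fish is set equal between fish, so its direction changes with the scaling. Without heaviest fish 2 it was -9.5 FPKM.

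The small deviations that remained were shared unevenly among the fish. Heaviest fish 2 was the highest fish for 39 of the 100 clusters, against 2 for lightest fish 1 and 11 to 19 for the other 4 fish. The lowest fish was heaviest fish 1 for 28 clusters, lightest fish 1 for 22 and heaviest fish 2 for 7. Several of these shares were alike in the other 379 clusters. There the highest fish was heaviest fish 2 for 26.4%, heaviest fish 1 for 26.1% and lightest fish 1 for 4.22%. The lowest was heaviest fish 1 for 29.3%, lightest fish 1 for 11.3% and heaviest fish 2 for 8.18%. The median deviation from a cluster's own mean was 0.085 on the log2 scale in heaviest fish 2 and -0.043 in lightest fish 1. It was -0.023 in heaviest fish 1, -0.017 in heaviest fish 3, 0.024 in lightest fish 2 and 0.021 in lightest fish 3. Heaviest fish 2 also led the other 379 clusters, with a median deviation of 0.16, so it was high there too. When the median of the 100 clusters was subtracted in each fish, their median SD went from 0.132 to 0.119.

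**Figure D2:**
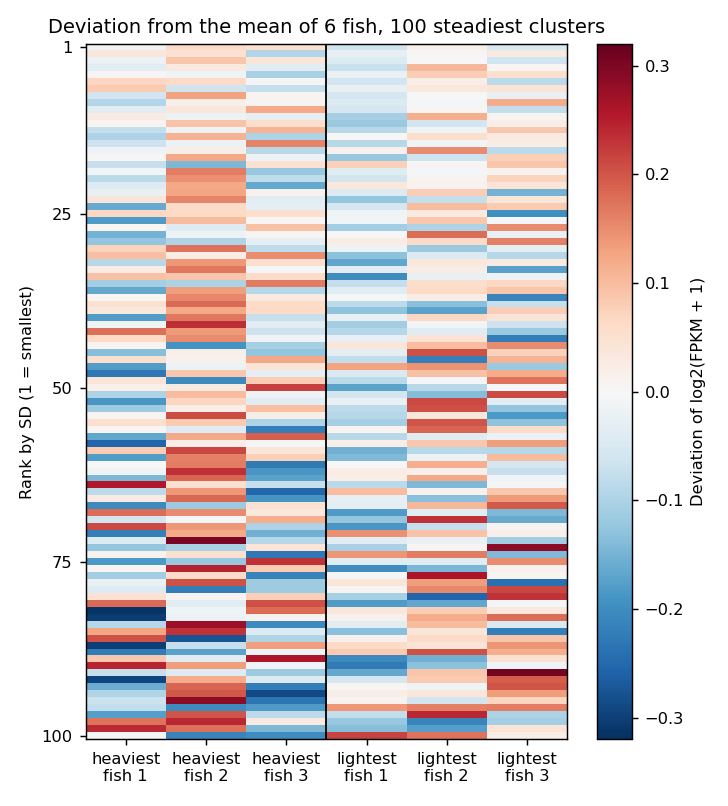
Rows are the 100 steadiest clusters ordered by SD and columns are the 6 fish, with the 3 heaviest left of the black line. Colour gives the deviation of log2(FPKM + 1) from the mean of the 6 fish, and the column of heaviest fish 2 is mostly red, since 71 of the 100 clusters were above their own mean in that fish.

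Spread within a group was larger among the heaviest fish. The median SD of log2 level was 0.116 within the heaviest and 0.0861 within the lightest fish (n = 3 each), and it was larger within the heaviest fish for 67 of the 100 clusters. The same held for 298 of the other 379 clusters (78.6%) and for 65.3% of all clusters tested. In the 100 clusters heaviest fish 2 had the largest median absolute deviation, 0.121, and the other 5 fish were at 0.0610 to 0.0846. In the other 379 clusters heaviest fish 1 had the largest, 0.353. The fish that stood apart over the whole table was therefore not the one that deviated most in the steady clusters, for which the rule selected small deviations in every fish.

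The median deviation of a fish differed with the level of the clusters. Heaviest fish 3 was low in clusters with a mean of 1 to 10 FPKM, with a median deviation of -0.23, and in clusters of 10 to 100 FPKM, with -0.21. In the 100 steady clusters heaviest fish 3 was at -0.017. Heaviest fish 1 was at 0.12 in clusters of 1 to 10 FPKM and at -0.023 in the steady clusters. Over all 479 clusters of 100 to under 1000 FPKM these 2 fish were at -0.0092 (heaviest fish 1) and -0.090 (heaviest fish 3), and at 1000 FPKM and over they were at -0.0022 and 0.076. In these 2 fish the larger shifts of the low levels were thus smaller in abundant clusters generally. Between 1 to 10 FPKM and 1000 FPKM and over, lightest fish 2 and 3 also shrank, from -0.11 to -0.064 and from 0.077 to -0.020. Heaviest fish 2 and lightest fish 1 grew in size, from -0.0093 to 0.081 and from 0.053 to -0.098. Over the 6 fish the medians spanned 0.36 at 1 to 10 FPKM, 0.33 at 10 to 100 FPKM, 0.22 at 100 to under 1000 FPKM, 0.18 at 1000 FPKM and over and 0.13 in the steady clusters, where the rule kept the span small.

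**Figure D3:**
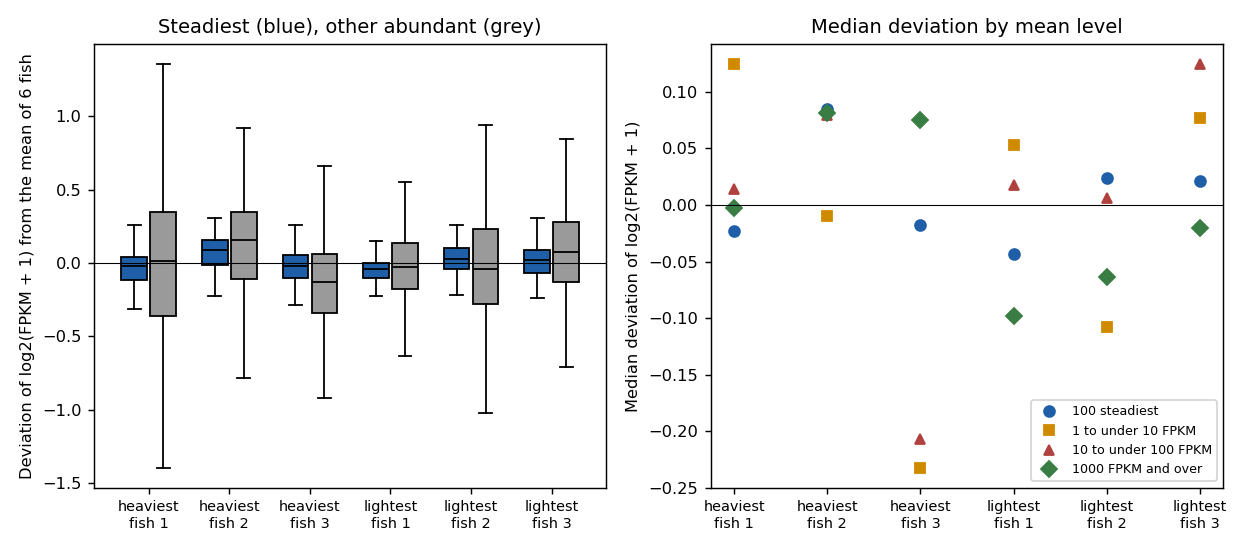
Left, deviation of log2(FPKM + 1) from the mean of 6 fish for the 100 steadiest (blue) and the 379 other clusters of 100 to under 1000 FPKM (grey), as boxes from the lower to the upper quartile with the median as a line and whiskers to the last value within 1.5 times the box length. Right, the median deviation in each fish by mean level: heaviest fish 3 lies at -0.23 for clusters of 1 to under 10 FPKM and at -0.017 for the steadiest clusters.

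How small the spread of the 100 clusters was depended on the scaling. On the deposited FPKM the 100 clusters had a median SD of 0.132. After median-ratio scaling over all clusters above 0 in every fish, which moved fish by up to 0.45 on the log2 scale relative to each other, the same 100 clusters had a median SD of 0.217. After upper-quartile scaling it was 0.289, and after quantile normalization 0.153. When the rule was applied to the scaled values, 60 of the 100 clusters were chosen again with median-ratio scaling, 43 with upper-quartile scaling, 73 with quantile normalization and 83 with equal totals. The level of a transcript per cell was not measured, and in bulk tissue fewer cells of a type and less RNA per cell cannot be told apart.

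Whether a cluster steady in some fish is steady in another fish can be asked with values the choice did not use. Each fish was left out in turn, the 100 steadiest clusters were chosen on the other 5, and the left-out fish was compared with the mean of those 5. Its median absolute deviation on the log2 scale was 0.169 in the chosen clusters and 0.372 in the others for heaviest fish 1. For heaviest fish 2 it was 0.171 against 0.277, and for heaviest fish 3 it was 0.120 against 0.247. For lightest fish 1, 2 and 3 it was 0.104 against 0.185, 0.111 against 0.281 and 0.106 against 0.230. The chosen clusters deviated less in 6 of 6 fish, and the ratio of the 2 medians ran from 0.396 to 0.618 with a median of 0.474. Among the 5 fish without heaviest fish 1 the median ratio was 0.558. The choices share fish with one another, so no test was made over them. In this and in the comparison of groups below, the chosen and the other clusters were not matched on level. Steady clusters were more frequent at higher levels.

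This result for left-out fish rested on the scaling. With equal totals and with quantile normalization the chosen clusters again deviated less in 6 of 6 fish, with median ratios of 0.485 and 0.583. With median-ratio scaling they deviated less in 4 of 6 fish, and the median ratio was 0.977. With upper-quartile scaling they deviated less in 1 of 6 fish, lightest fish 2, and the median ratio was 1.12. The upper quartile was taken over all clusters above 0 in any fish. Of those 83862 clusters, 28592 averaged 1 FPKM or more, so its factors came mostly from low levels. The fish medians spanned more at low levels, as given above. Whether that lies behind these ratios was not tested. 

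**Figure D4:**
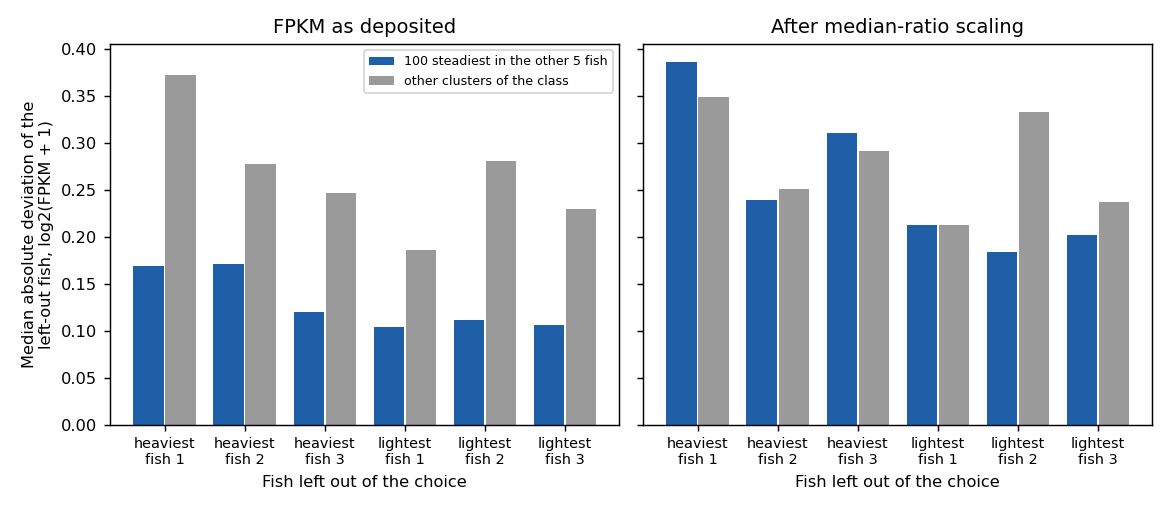
Bars give, for each fish left out, the median absolute deviation of its log2(FPKM + 1) from the mean of the other 5 fish, for the 100 clusters steadiest in those 5 (blue) and the other clusters of 100 to under 1000 FPKM (grey). On deposited FPKM (left) the blue bar is the lower one in 6 of 6 fish, and after median-ratio scaling (right) in 4 of 6.

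Spread in the heaviest fish and spread in the lightest fish were related across clusters but far from identical. The 100 clusters steadiest in the 3 heaviest fish had a median SD of 0.111 in the 3 lightest fish, against 0.161 for the other 378 clusters with a heaviest-group mean of 100 to under 1000 FPKM. The 100 clusters steadiest in the lightest fish had a median SD of 0.217 in the heaviest fish, against 0.300 for the other 389 chosen by the mean of the lightest. The ratio of these medians was 0.692 for the choice on the heaviest and 0.724 for the choice on the lightest fish, and without heaviest fish 1 it was 0.883 and 0.783. Of those steadiest in the heaviest fish, 32% were also among the 100 steadiest in the lightest, where the 100 were 20.9% of the clusters. In the other direction it was 28%, where the 100 were 20.4%. Across clusters, which share libraries and are not independent, Spearman's rho between the 2 SDs was 0.427 over 478 clusters and 0.390 over 489 clusters.

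Between heaviest and lightest fish the 100 clusters differed little, as the rule requires. Of all 28592 clusters tested with limma on log2(FPKM + 1), 1.22% passed a Benjamini-Hochberg adjusted p under 0.05, 0.574% with the heaviest fish above and 0.651% with them below. Of the 100 clusters limma called 0. At an unadjusted limma p under 0.05 were 2 of the 100, against 2456 of all 28592. The rule used the same 6 values, so nothing is read from the counts among the 100. The median log2 difference, heaviest minus lightest, was -0.0070 in the 100 clusters, 0.029 in the other 379 and -0.030 over all clusters tested. The value of -0.0070 ran from -0.032 without lightest fish 1 to 0.031 without heaviest fish 1. The median size of the difference without its sign was 0.11, 0.33 and 0.29 in the same order.

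The differences of the 100 clusters ran in both directions, with 49 higher in the mean of the heaviest fish and 51 lower. In 9 clusters all 3 heaviest fish were above all 3 lightest, where 4.95% of all clusters tested were so ordered, and in 8 they were all below, where 8.26% were. In the other 379 clusters the numbers were 46 and 53. These counts depend on the scaling: with equal totals 33 of the 100 were higher in the heaviest fish, with quantile normalization 42, with median-ratio scaling 68. With upper-quartile scaling the number stayed at 49. The 9 and 8 clusters without overlap became 4 and 13 with equal totals, 7 and 4 with quantile normalization, 5 and 0 with median-ratio scaling and 0 and 0 with upper-quartile scaling. The shares over all clusters tested are given on deposited FPKM only, so the scaled counts have no share to be set against.

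Some abundant members of the set had groups that were apart by small steps. The cluster ranked 34 was at 863.2, 860.8 and 844.4 FPKM among the heaviest fish and 703.4, 796.0 and 801.0 FPKM among the lightest fish. The cluster ranked 31 was at 841.9, 800.4 and 874.2 FPKM among the heaviest and 719.3, 763.8 and 739.0 FPKM among the lightest fish. Every heaviest fish exceeded every lightest fish in both. The opposite order was seen in the cluster ranked 44, at 780.6, 679.5 and 721.0 FPKM among the heaviest and 797.6, 831.0 and 861.6 FPKM among the lightest fish. Of the 20 clusters with a mean of 500 FPKM or more, 15 were higher in the heaviest fish on deposited FPKM and with upper-quartile scaling. The number was 16 with median-ratio scaling, 10 with equal totals and 8 with quantile normalization, so their direction changes with some scalings too. The count for other clusters of that level is not given here, so the lean is not shown to be particular to the steady ones. In all clusters at 1000 FPKM and over, the median deviation on deposited FPKM was -0.0022, 0.081 and 0.076 in the heaviest fish. In the lightest fish it was -0.098, -0.064 and -0.020. Of the 48 clusters under 200 FPKM, 20 were higher in the heaviest fish on deposited FPKM, and 13 to 31 with the other scalings.

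The largest difference upward within the set belonged to Cluster-6468.32975, ranked 98 in SD. It measured 613.6, 643.1 and 555.2 FPKM in fish 1, 2 and 3 of the heaviest and at 500.1, 470.4 and 504.3 FPKM in fish 1, 2 and 3 of the lightest. Its log2 difference was 0.29 with a limma SE of 0.11, and every heaviest fish exceeded every lightest fish. With quantile normalization the difference was 0.18. The largest difference downward belonged to Cluster-6468.32269, ranked 96. It measured 206.0, 189.2 and 191.8 FPKM in fish 1, 2 and 3 of the heaviest and at 239.9, 243.5 and 244.1 FPKM in fish 1, 2 and 3 of the lightest. Its log2 difference was -0.31 with a limma SE of 0.12, and its 3 lightest fish lay within 5 FPKM of each other. Both were chosen as extremes among the 100 and had SDs of 0.179 and 0.175, close to the limit of 0.180.

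For the 2 steadiest clusters the log2 difference was 0.065 with an SE of 0.086 for Cluster-6468.31783 and -0.0040 with an SE of 0.13 for Cluster-6468.26463. Both directions turned with the scaling. Cluster-6468.31783 was at -0.045 with quantile normalization, -0.0098 with equal totals and 0.14 with median-ratio scaling. Cluster-6468.26463 was at 0.067 with median-ratio scaling and -0.079 with equal totals. The limma SE draws on the spread of clusters of like abundance, so for the steadiest clusters it is larger than their own spread between fish.

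**Figure D5:**
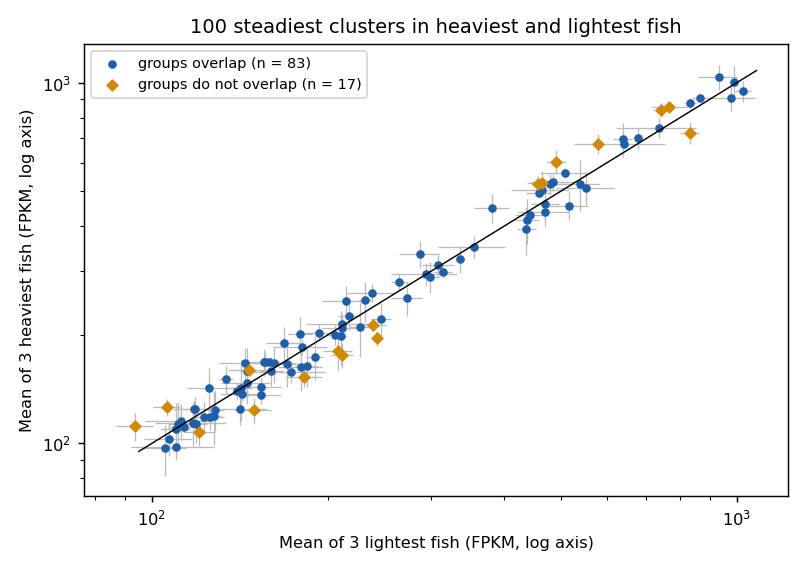
Mean FPKM of the 3 heaviest fish against that of the 3 lightest for the 100 steadiest clusters, on log axes, with SD over 3 fish as error bars and the line of equality. Of the points, 17 (orange) have groups that do not overlap, 9 above the line and 8 below it. Groups did not overlap in 13.2% of the 28592 clusters tested. In the other 379 clusters of the same range of level the share was 26.1%. The rule used the same values, so these counts are descriptions.

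The leading patterns of the remaining variation differed from those of the other clusters. The deviations were not scaled to equal spread, so clusters with a larger SD weigh more in them. The SD reached 4.31 in the other 379 clusters and 0.180 in the 100, so the patterns need not be those of a typical cluster. A decomposition of the deviations of the 100 clusters gave a leading pattern with 32.9% of their sum of squares. In it the 3 heaviest fish had weights of 0.57, 0.45 and 0.13 and the 3 lightest -0.33, -0.44 and -0.39. The second pattern was nearly as large, with 27.9%, and its largest weights were within the heaviest fish, 0.68 for fish 2 and -0.54 for fish 3. In the other 379 clusters the leading pattern held 46.3% and had heaviest fish 1 at 0.80, with weights of at most 0.37 in size for the other 5. The second pattern of those 379 held 31.5%. The sign of such a pattern is arbitrary, and clusters follow it in either direction. The part of a cluster's sum of squares that lay between the groups had a median of 23.3% in the 100 clusters, 30.9% in the other 379 and 16.7% over all clusters tested. The rule limits the total variation of each cluster, so these patterns are descriptions.

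The relative abundances of the 100 clusters were nearly the same in every pair of fish. Pearson's r of log2(FPKM + 1) across the 100 clusters was 0.977 to 0.995 over the 15 pairs of fish, with means of 0.987 within groups and 0.982 between groups. Across the other 379 clusters it was 0.293 to 0.854. These correlations are over clusters, which are not replicates, and the choice of steady clusters raises them.

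The IDs of the clusters hold 2 numbers, and how they were given is not stated in the sources used here. The first number was 6468 for all 100 clusters and for all of the other 379, against 67.8% of all clusters and 91.4% of those tested. The middle 50 of the 100 clusters had second numbers between 31338.5 and 33134.5. That stretch held 46.2% of the other 379 clusters and 2.96% of all clusters with the first number 6468. The position of the IDs was therefore common to abundant clusters and not a feature of the steady ones. Among the 100 clusters, 4 pairs had consecutive second numbers.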

How the data were processed

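RNA from back muscle of 6 fish, 3 heaviest and 3 lightest, was sequenced after library preparation with Illumina protocols, per the labels' protocols. The authors deposited FPKM values, 1 column per fish, rounded to 2 decimals. How the reads were assembled, clustered, aligned and counted is not given in the sources used. Groups came from the labels, and each library is a separate fish. Depth is unknown, so no interval for counting error is given.

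Members and summaries were computed with Python 3.11.15, numpy 2.4.6 and pandas 2.3.3. The whole table was fitted with limma 3.58.1 in R 4.3.3: 2 groups, log2(FPKM + 1), a variance trend, two-sided, a minimum mean of 1 FPKM, Benjamini-Hochberg adjustment. The step was tested on simulated data. The members and lists were chosen with earlier results of these data known. IDs printed were, by rule, the 2 smallest SDs and the largest difference in each direction. Clusters given by rank were picked after their values were seen. Alternatives were pseudocounts of 0.1 and 0.5, 4 scalings, other filters, limma without a trend or with a robust one, a replicate block, other measures of spread and windows of level, and each fish left out. Transcript lengths, the assembly summary and the table of FPKM intervals were not used.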

Additional observations from a re-analysis of the deposited data

How the results depend on the processing

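All alternatives were planned. limma called 0 of the 100 clusters in the 17 alternatives run, the replicate block included. The rule kept differences small on these same values, so nothing is read from that count. Over all clusters tested, the main setting called 1.22%, and the alternatives called from 62 (of 9092) to 514 (of 83862). The pairing check gave correlations of 0.171, 0.065 and 0.056 for same-numbered fish and -0.104 to 0.051 for other pairs, the labels give the numbers no shared origin, and the block took the calls over all clusters from 350 to 163. Median-ratio scaling, upper-quartile scaling and quantile normalization moved the median SD of the 100 clusters from 0.132 to 0.217, 0.289 and 0.153, and the median left-out ratio from 0.474 to 0.977, 1.12 and 0.583. With equal totals the median SD was 0.138. A rise of this SD is partly built in, since the 100 clusters were chosen on the deposited values. The median log2 difference became 0.064 with median-ratio scaling and -0.082 with equal totals. The difference in summed FPKM became 2291.2 with median-ratio scaling, -1023.7 with quantile normalization and -1108.2 with equal totals. Chosen again were 60 of 100 with median-ratio scaling, 43 with upper-quartile scaling, 60 with a range of 50 to under 1000 FPKM and 46 with no upper limit, the latter pair because more clusters compete. The coefficient of variation, the range and the SD within groups returned 97, 93 and 70. For clusters chosen on the heaviest and measured in the lightest fish, the ratio of median SDs, 0.692, became 0.725 with median-ratio and 0.733 with upper-quartile scaling. In the other direction 0.724 became 0.704 with median-ratio scaling, 0.648 with upper-quartile scaling and 0.645 with quantile normalization. Except where the construction is named, the cause was not tested. Leaving out each fish gave 77 to 90 clusters chosen again, a left-out ratio of 0.468 to 0.558 (without heaviest fish 1), 0.571 (without lightest fish 1) to 0.883 (without heaviest fish 1) for choice on the heaviest and 0.672 to 0.830 for choice on the lightest fish, a median log2 difference of -0.032 to 0.031, a median SD of 0.118 to 0.139 and a summed difference of -9.5 to 1033.5 FPKM. Depth is unknown, so what it limits was not computed.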
